A study of Mus musculus with 6 samples.

Results

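The interferon-stimulated genes described here are 43 genes, chosen by symbol, that encode antiviral effectors, sensors, guanylate-binding and immunity-related GTPases, and regulators of the interferon response. Each was represented by the microarray probe with the highest mean log2 intensity among probes annotated to that symbol alone. Of the 43 members, 40 had such a probe among 18193 genes on the array. Gbp4 and Isg15 were annotated only on probes that carry several symbols, and with Ifi44 they are not described here. A test was run on 10916 genes whose mean log2 intensity over the arrays reached the 40th percentile, equal to an intensity of 30.8, and 36 members were among them. The other 4, Mx1, Mx2, Dhx58 and Parp12, were dimmer and are given by their values.

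RNA came from thymocytes sorted by CD4 and CD8 staining from mice with the genotype N15 TCR tg+/+ RAG-2-/- H-2b, aged 5 to 6 weeks. The stages, in developmental order, were CD4+CD8+ (DP) cells, CD4intCD8+ cells with intermediate CD4, and CD8SP cells, which keep CD8 alone. Each stage had 2 arrays, numbered 1 and 2 in the labels, and 6 mice were used over a pair of independent experiments. All 3 groups carry the same alleles: a transgene for 1 T cell receptor and loss of Rag2, without which no endogenous receptor is assembled. No array was tied by the labels to an animal, so p-values measure the spread between arrays, and the small number of arrays limits their precision. The arrays had medians of 24.9 to 25.7 over all probes, and the 6 thymocyte markers on the array (Cd3d, Cd3g, Cd3e, Thy1, Cd8a and Cd8b1) lay above the filter intensity.

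Interferons are secreted cytokines that induce an antiviral state. Type I interferons bind Ifnar1 and Ifnar2, which act through the kinases Jak1 and Tyk2 on Stat2, and this joins Irf9 in a complex that binds the interferon-stimulated response element (ISRE). Interferon gamma binds Ifngr1 and Ifngr2 and acts mainly on the gamma-activated site (GAS). In the mouse thymus, medullary epithelial cells are a known source of type I interferon without infection, and late maturation of single-positive cells has been linked to interferon signalling.

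The promoters of Ifit1, Bst2, Gbp3 and Herc6, the 4 members called in both CD4intCD8+ and CD8SP against DP cells, and of Ifit3 as the neighbour in family of Ifit1, are shown so that the response element can be seen in them. They are 170 bases of RefSeq sequence (mouse build GRCm38.p6) upstream of the annotated start, 5′ to 3′ on the strand of the gene, with ISRE matches on either strand in capitals. The letters searched were GAAA, any 2 bases and GAAA again, which on the other strand read TTTC, any 2 bases and TTTC, and overlapping matches were kept. The windows are Ifit1 (chr19:34640719-34640888, plus strand), Ifit3 (chr19:34583359-34583528, plus strand), Bst2 (chr8:71537473-71537642, minus strand), Gbp3 (chr3:142559874-142560043, plus strand, the first of 2 annotated starts) and Herc6 (chr6:57580822-57580991, plus strand).
Ifit1: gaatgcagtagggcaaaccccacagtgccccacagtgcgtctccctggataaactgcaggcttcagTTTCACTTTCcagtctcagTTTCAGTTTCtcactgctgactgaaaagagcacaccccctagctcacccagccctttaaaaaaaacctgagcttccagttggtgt
Ifit3: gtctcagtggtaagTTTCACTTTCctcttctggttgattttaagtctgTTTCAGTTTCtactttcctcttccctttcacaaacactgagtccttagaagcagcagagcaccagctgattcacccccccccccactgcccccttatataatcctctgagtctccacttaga
Bst2: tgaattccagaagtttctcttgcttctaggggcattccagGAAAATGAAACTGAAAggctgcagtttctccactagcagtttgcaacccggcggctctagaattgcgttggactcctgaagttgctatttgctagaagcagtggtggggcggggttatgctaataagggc
Gbp3: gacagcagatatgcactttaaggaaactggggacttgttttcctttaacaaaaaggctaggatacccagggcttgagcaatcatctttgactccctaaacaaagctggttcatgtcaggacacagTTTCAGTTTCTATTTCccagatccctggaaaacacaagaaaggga
Herc6: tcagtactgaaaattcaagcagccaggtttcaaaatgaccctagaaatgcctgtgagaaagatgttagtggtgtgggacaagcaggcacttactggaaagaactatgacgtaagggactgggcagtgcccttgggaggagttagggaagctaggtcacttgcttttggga

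Ifit1, Ifit3, Bst2 and Gbp3 each hold 2 matches in the printed bases, and those of Bst2 and of Gbp3 overlap each other. The window at the other annotated start of Gbp3, not printed, held 0. Herc6 holds 0 in its printed bases, which says only that these letters are not in this window. RefSeq windows of 300 bases (250 before the start and 50 after it) were found for 30 members, and 17 of the 30 (56.7%) held the ISRE letters. By window, 18 of 36 member windows (50%) held them, against 1131 of 32851 windows of all genes (3.44%). The GAS letters TTCNNNGAA, which read the same on both strands, were in 8 of the 36 member windows (22.2%), against 8.30% of all windows. Among members with a window, 5 of the 11 called in CD8SP against DP held the ISRE letters, and 11 of the 16 tested but not called did. Members were named for their response to interferon, so a high share of these motifs describes the list and is no result of these arrays.

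Within each stage the members differed between the replicates, and always more often in 1 direction. Of the 36 tested members, 34 were higher on replicate 1 than on replicate 2 in DP cells, 29 in CD4intCD8+ cells and 33 in CD8SP cells. For 28 of 36 (77.8%) replicate 1 was higher at every stage, against 18.1% of all tested genes, and for 0 was it lower at every stage. The median difference, replicate 1 minus replicate 2 on the log2 scale, was 0.42 in DP, 0.59 in CD4intCD8+ and 0.49 in CD8SP cells, against 0.02, -0.03 and -0.02 for all tested genes. Relative to each member's own mean over the 6 arrays, the median log2 level was -0.21 and -0.63 (DP), 0.34 and -0.25 (CD4intCD8+), then 0.61 and 0.16 (CD8SP), with replicate 1 first as in all lists of arrays here. The second CD4intCD8+ array therefore lay at the level of the first DP array, and the second CD8SP array below the first CD4intCD8+ array. The 3′ to 5′ ratio of the actin control probes and the summed dendritic markers, given with the other markers, were both higher on replicate 2 at every stage, and their part in this difference was not tested. Over the whole span the arrays of each replicate number gave a positive median log2 change. It was 0.85 for replicate 1, with 32 of 36 members positive, and 0.78 for replicate 2, with 29 of 36 positive. The labels do not say which experiment a replicate number belongs to.

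**Figure D1:**
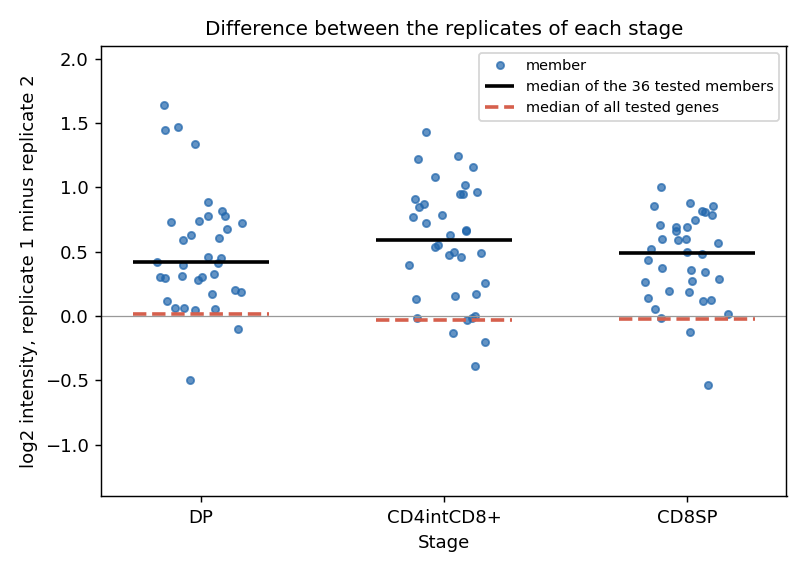
Difference between the replicates of each stage, as log2 intensity of replicate 1 minus replicate 2 (vertical axis) by stage (horizontal axis). Points are the 36 tested members, spread sideways for legibility, black lines their medians (0.42, 0.59 and 0.49) and dashed lines the medians of all tested genes, which lie close to 0.

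Across the whole span most members stood higher in CD8SP than in DP cells. Among the 36 tested members the largest changes were in the membrane protein gene Ifi27l2a (6.63-fold) and the RNA-binding Ifit1 (5.51-fold). Next came the tetherin gene Bst2 (4.64-fold) and the cell death gene Xaf1 (3.39-fold). These folds are on the scale of log2(intensity + 5.84), which understates changes of dim genes. Without DP replicate 1 the log2 change was 3.55 for Ifi27l2a and 3.20 for Ifit1, and without DP replicate 2 it was 1.91 for Ifi27l2a and 1.73 for Ifit1, against 2.73 and 2.46 with all arrays. In CD8SP against DP cells, 16 of 36 tested members were called (limma, adjusted p under 0.05 over all genes tested), all higher, against 19.8% of all genes called either way and 11.5% called higher. The median log2 change of the tested members was 0.86, against 0.01 for all genes, and 31 of 36 were positive. Over the 40 members on the array, both CD8SP arrays lay above both DP arrays for 26 and below for 3, against 27.6% and 25.1% of all genes, and 11 overlapped. By stage mean, 25 of the 36 tested members (69.4%) were highest in CD8SP, against 33.8% of all tested genes, 7 in CD4intCD8+ and 4 in DP cells. The mean was higher at each successive stage for 25 of the 36 (69.4%), against 24.9% of all tested genes. In bulk RNA of a sorted population, fewer cells with a transcript and less of it per cell cannot be told apart. With the replicate number as a block, 25 of 36 members were called in CD8SP against DP, all higher, against 30.0% of all genes called either way, 16.9% called higher and 13.1% called lower. These 25 held all 16, and added Ddx58, Ifih1, Irgm1, Isg20, Oas1a, Oas2, Oas3, Rsad2 and Trim30a. Without the filter on dim genes, 14 of the 40 members on the array were called, all of them among the 16 (Eif2ak2 and Usp18 were lost), against 10.4% of all genes called either way and 6.10% called higher. Bst2, Gbp3, Oasl1, Ifih1, Oas1a and Iigp1 had DP means of 22.3 to 29.6, under the filter intensity of 30.8. They passed it only through the later stages, so the filter favoured members that rise and their counts lend no support. Of them Bst2, Gbp3 and Oasl1 were among the 14 called without the filter. Iigp1 was not called with the filter (log2 change 0.11, adjusted p = 0.887).

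**Figure D2:**
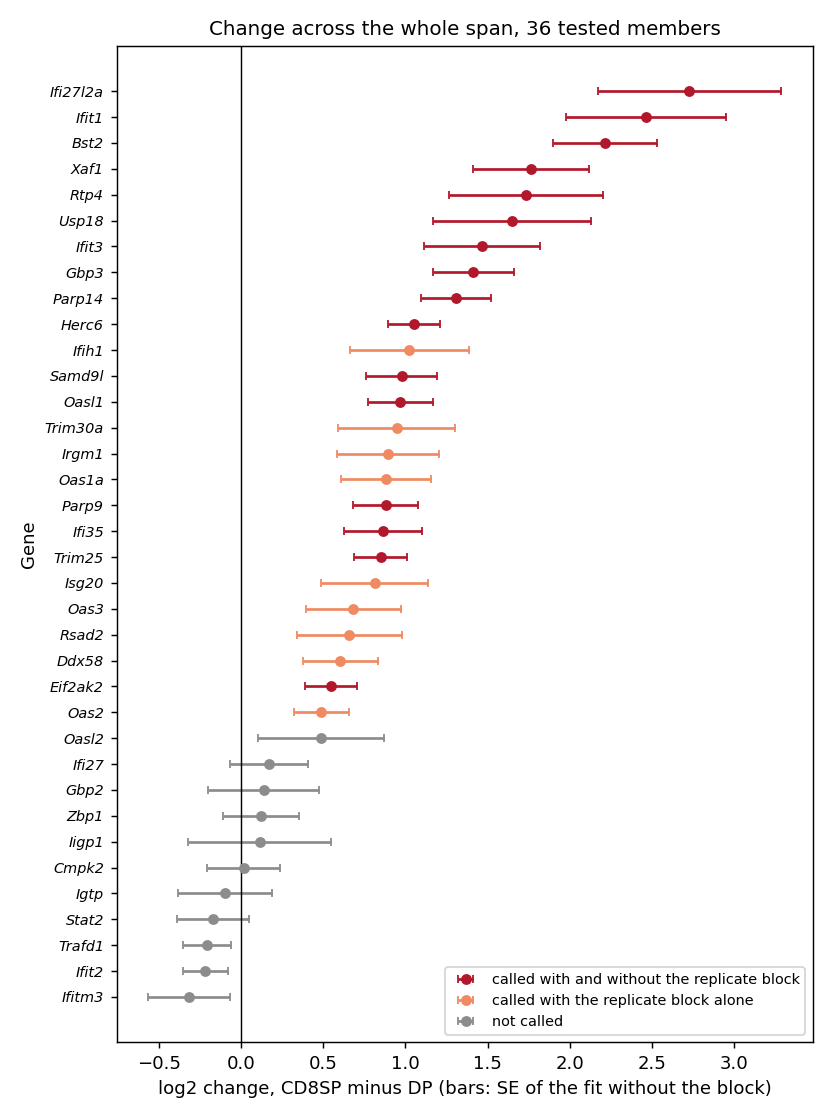
Log2 change, CD8SP minus DP (horizontal axis), of each of the 36 tested members (vertical axis), with the SE of the fit without the replicate block. Dark points are the 16 members called with and without the block, light red points the 9 called with the block alone, and grey points the members not called; Ifi27l2a stands at 2.73 and Ifitm3 at -0.32.

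The IFIT genes encode proteins that bind viral RNA and block its translation, and 2 of the 3 rose over the whole span. Ifit1 had intensities of 76.3 and 23.9 (DP), 272 and 131 (CD4intCD8+), then 361 and 196 (CD8SP). Every later array lay above both DP arrays, but the CD4intCD8+ and CD8SP arrays overlapped. Its log2 change was 2.46 ± 0.48 in CD8SP against DP cells (± values are the SE of the fit throughout, adjusted p = 0.00824). Ifit3 had 50.6 and 27.9 (DP), 89.5 and 43.6 (CD4intCD8+), then 143 and 92.1 (CD8SP). The CD8SP arrays were above all others, while the second CD4intCD8+ array fell between the DP arrays. In CD8SP against DP cells it changed by 1.47 ± 0.35 (adjusted p = 0.0196). Ifit2 took another course, with 141 and 135 (DP), 137 and 151 (CD4intCD8+), then 117 and 118 (CD8SP). Both CD8SP arrays were below the others, and the change of -0.22 ± 0.14 against DP cells was not called (adjusted p = 0.309).

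Bst2 encodes tetherin, which holds budding virus at the cell surface, and had 34.8 and 19.6 (DP), 120.1 and 59.3 (CD4intCD8+), then 151 and 136 (CD8SP). The 3 stages did not overlap, and the change in CD8SP against DP cells was 2.22 ± 0.32 (adjusted p = 0.0018). Ifitm3, which hinders virus entry at membranes, had 36.1 and 31.4 (DP), 34.1 and 40.01 (CD4intCD8+), then 20.5 and 32.4 (CD8SP). It was lowest on the first CD8SP array, its DP and CD8SP arrays overlapped, and the change of -0.32 ± 0.25 was not called. Ifi27l2a, an interferon-induced membrane protein gene of the Ifi27 family, had 203 and 61.4 (DP), 544 and 198 (CD4intCD8+), then 1026 and 592 (CD8SP). The CD8SP arrays stood above all others and the second DP array below all others, and the CD8SP minus DP change of 2.73 ± 0.56 (adjusted p = 0.00964) was the largest among the 36 tested members. Its relative Ifi27 had 418 and 342 (DP), 485 and 304 (CD4intCD8+), then 507 and 357 (CD8SP), on a probe whose name marks possible matches to other transcripts. The stages overlapped and its change was 0.17 ± 0.24, not called.

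**Figure D3:**
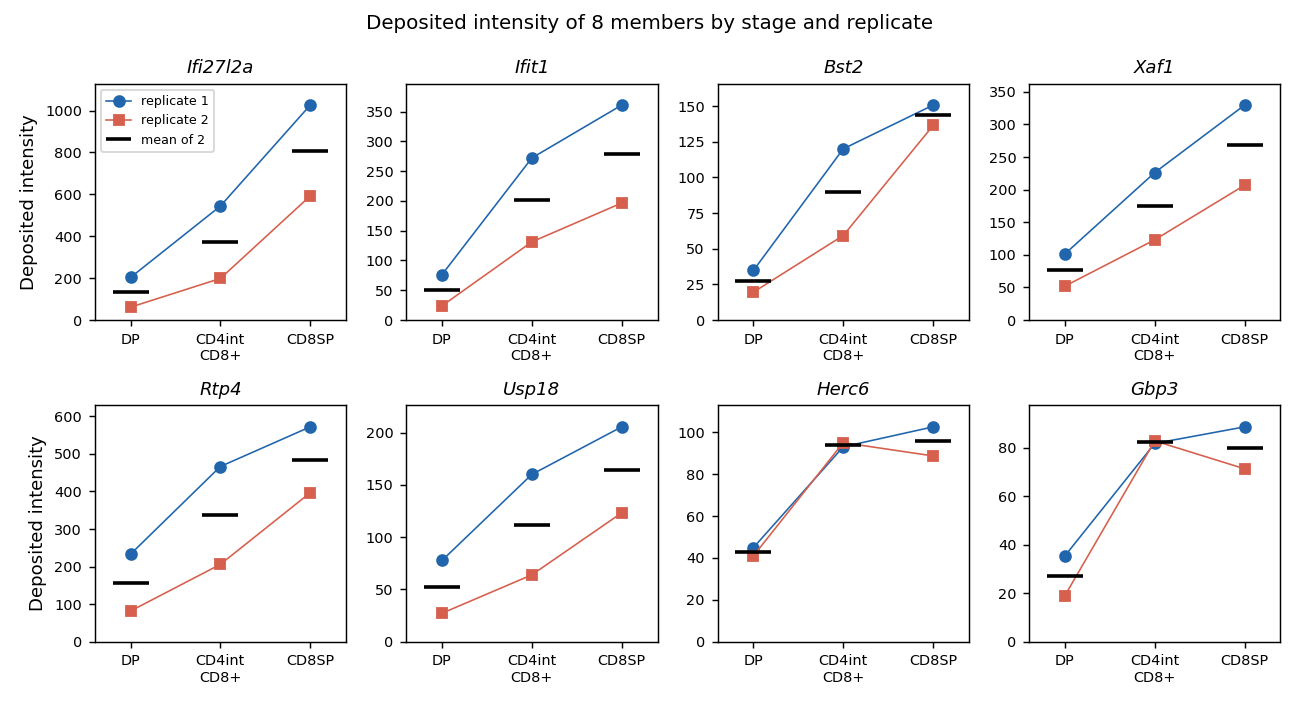
Deposited intensity (vertical axes, each starting at 0) of Ifi27l2a, Ifit1, Bst2, Xaf1, Rtp4, Usp18, Herc6 and Gbp3 at the 3 stages (horizontal axes). Circles joined by a line are replicate 1, squares replicate 2 and black bars the mean of both; replicate 1 lies above replicate 2 at all 3 stages for Ifi27l2a, Ifit1, Bst2, Xaf1, Rtp4 and Usp18, while the CD4intCD8+ arrays of Herc6 (93.1 and 95.1) and Gbp3 (81.8 and 82.8) nearly coincide.

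Interferon-inducible GTPases act on vacuoles that hold pathogens or on viral components. Of the 5 tested, 1 was called higher in CD8SP against DP cells, against 19.8% of all genes called either way and 11.5% called higher. This share was near the background. Gbp3, a guanylate-binding protein, had 35.4 and 19.0 (DP), 81.8 and 82.8 (CD4intCD8+), then 88.6 and 71.4 (CD8SP). All later arrays were more than 2 times the higher DP array, and the change in CD8SP against DP cells was 1.41 ± 0.25 (adjusted p = 0.00471). Its relative Gbp2 had 191 and 109 (DP), 237 and 150.5 (CD4intCD8+), then 217 and 117 (CD8SP), with all stages overlapping. Irgm1, a regulatory immunity-related GTPase, had 132 and 72.6 (DP), 181 and 103 (CD4intCD8+), then 214 and 164 (CD8SP). Its CD8SP arrays were above its DP arrays, and the change of 0.89 ± 0.31 was called with the replicate block (adjusted p = 0.00132) but not without it (adjusted p = 0.0739). Igtp, an immunity-related GTPase also called Irgm3, had 692 and 563 (DP), 617 and 326 (CD4intCD8+), then 719 and 474 (CD8SP). Its stages overlapped, its lowest value was on the second CD4intCD8+ array, and in CD8SP against DP cells it changed by -0.10 ± 0.29, not called. Iigp1 ranged between 19.3 and 52.7 with its stages overlapping. Mx1 and Mx2, dynamin-like antiviral GTPases, were at 26.5 or lower on all arrays, under the filter.

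Herc6, Usp18 and Trim25 belong to the system that attaches the ubiquitin-like protein Isg15, or to ubiquitin signalling beside it, and all 3 rose over the whole span. Herc6, the mouse ligase for Isg15, had 45.0 and 41.0 (DP), 93.1 and 95.1 (CD4intCD8+), then 103 and 88.7 (CD8SP). The later arrays formed 1 group at about 2 times the DP arrays, with a change of 1.05 ± 0.16 in CD8SP against DP cells (adjusted p = 0.00234). Usp18, the protease that removes Isg15 and also restrains the type I receptor, had 77.8 and 27.3 (DP), 160.0 and 64.0 (CD4intCD8+), then 205 and 123 (CD8SP). Replicate 1 exceeded replicate 2 at each stage, the second CD4intCD8+ array fell between the DP arrays, and the change in CD8SP against DP cells was 1.65 ± 0.48 (adjusted p = 0.0419). Trim25, a ligase that acts on the sensor RIG-I, had 323 and 241 (DP), 393 and 348 (CD4intCD8+), then 529 and 487 (CD8SP), on a probe whose name marks possible matches to other transcripts. The stages did not overlap, and it changed by 0.85 ± 0.16 (adjusted p = 0.00689).

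Among sensors of foreign nucleic acid, 1 of 4 tested was called in CD8SP against DP cells. Of all genes 19.8% were called either way and 11.5% higher, so with 4 genes this was near the background. Eif2ak2, the kinase PKR that halts translation on double-stranded RNA, had 60.4 and 57.5 (DP), 78.3 and 79.3 (CD4intCD8+), then 95.2 and 82.9 (CD8SP). The 3 stages did not overlap, and the change in CD8SP against DP cells was 0.55 ± 0.16 (adjusted p = 0.0382), which was lost without the filter on dim genes (adjusted p = 0.0709). Ifih1, the RNA sensor MDA5, had 37.1 and 21.9 (DP), 70.2 and 33.2 (CD4intCD8+), then 83.5 and 49.3 (CD8SP). Its CD8SP arrays lay above its DP arrays, and the change of 1.02 ± 0.36 was called with the block (adjusted p = 0.00297) but not without it (adjusted p = 0.0796). Ddx58, the RNA sensor RIG-I, had 128 and 96.1 (DP), 138 and 95.8 (CD4intCD8+), then 204 and 145 (CD8SP), again with the CD8SP arrays above the DP arrays. Its change of 0.60 ± 0.23 was called with the block alone (adjusted p = 0.00554, against 0.0987 without it). Zbp1, a sensor of Z-form nucleic acid, had 322 and 259 (DP), 406 and 286 (CD4intCD8+), then 389.6 and 255 (CD8SP), with overlapping stages. Dhx58, the RIG-I-like protein LGP2, lay under the filter with 9.07 and 1.35 (DP), 25.5 and 6.49 (CD4intCD8+), then 37.1 and 23.6 (CD8SP). Both CD8SP arrays were above both DP arrays, and without the filter the change of 1.78 ± 0.50 missed the threshold (adjusted p = 0.0508).

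The OAS genes encode enzymes that make 2′-5′-linked oligoadenylate, which activates RNase L, or relatives that have lost this activity, and the family shares related sequence that probes may not separate fully. Oasl1, a relative that in mouse restrains translation of Irf7, had 22.7 and 21.8 (DP), 38.0 and 38.1 (CD4intCD8+), then 49.5 and 48.8 (CD8SP). The stages did not overlap, the replicates of each stage nearly coincided, and the change in CD8SP against DP cells was 0.97 ± 0.20 (adjusted p = 0.00975). Oas1a had 30.8 and 26.4 (DP), 58.5 and 31.99 (CD4intCD8+), then 65.7 and 50.1 (CD8SP), with every later array above both DP arrays. Oas2 had 75.0 and 64.3 (DP), 76.2 and 68.8 (CD4intCD8+), then 111 and 90.3 (CD8SP), with the CD8SP arrays above all others. Oas3 had 41.3 and 29.3 (DP), 54.4 and 37.6 (CD4intCD8+), then 78.9 and 44.7 (CD8SP), and its CD8SP arrays were above its DP arrays. In CD8SP against DP cells these 3 changed by 0.88 for Oas1a, 0.49 for Oas2 and 0.68 for Oas3, and all 3 were called with the block alone (adjusted p = 0.0116, 0.029 and 0.0228 in that order). Oasl2 had 41.2 and 21.7 (DP), 61.6 and 36.7 (CD4intCD8+), then 65.6 and 29.8 (CD8SP). Its DP and CD8SP arrays overlapped, and it was called neither way.

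Of the PARP genes, whose products attach ADP-ribose or bind it, both tested members rose. Parp14 had 97.0 and 69.4 (DP), 143 and 95.5 (CD4intCD8+), then 216 and 208 (CD8SP). The CD8SP arrays stood apart above all others, with a change of 1.31 ± 0.22 in CD8SP against DP cells (adjusted p = 0.00364). Averaged with its dimmer second probe the change was 0.38 and not called (adjusted p = 0.449). Parp9 had 159.6 and 127 (DP), 267 and 193 (CD4intCD8+), then 301 and 237 (CD8SP). All later arrays were above both DP arrays, and the change was 0.88 ± 0.20 (adjusted p = 0.0153). Parp12 lay under the filter at 20.8 to 33.9.

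Samd9l, which restricts poxviruses and cell growth, had 211 and 170.1 (DP), 307 and 232 (CD4intCD8+), then 463 and 310.0 (CD8SP). The stages did not overlap, and in CD8SP against DP cells it changed by 0.98 ± 0.22 (adjusted p = 0.0137). Isg20, an exonuclease for RNA, had 127 and 82.2 (DP), 198 and 106 (CD4intCD8+), then 236 and 144 (CD8SP). Its CD8SP arrays exceeded its DP arrays, and the change of 0.81 ± 0.32 was called with the block alone (adjusted p = 0.00125, against 0.114 without it). Rsad2, or viperin, which makes a chain-terminating nucleotide, had 77.6 and 44.8 (DP), 90.7 and 60.8 (CD4intCD8+), then 131 and 71.5 (CD8SP). Here the second CD8SP array was below the first DP array, and the change of 0.66 ± 0.32 was called with the block alone (adjusted p = 0.00927, against 0.189 without it). Cmpk2, a mitochondrial nucleotide kinase next to Rsad2 in the genome, ranged between 46.0 and 68.5 with its stages overlapping and a CD8SP minus DP change of 0.02. Its other probe averaged 16.7 (DP), 30.7 (CD4intCD8+), then 49.2 (CD8SP), a change of 1.27, so the probes of Cmpk2 disagree.

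Of the 6 remaining members with a probe, regulators and others, 3 were called higher in CD8SP against DP cells. Of all genes 19.8% were called either way and 11.5% higher. Xaf1, a promoter of cell death, had 101 and 52.0 (DP), 226 and 123 (CD4intCD8+), then 329.7 and 207 (CD8SP). All later arrays exceeded both DP arrays, and the CD8SP minus DP change was 1.76 ± 0.35 (adjusted p = 0.009). Rtp4, a chaperone of cell surface receptors, had 233 and 81.9 (DP), 466 and 206 (CD4intCD8+), then 572 and 397 (CD8SP). The second CD4intCD8+ array was below the first DP array, and CD8SP against DP cells gave a change of 1.74 ± 0.47 (adjusted p = 0.0315). Ifi35, an interferon-induced leucine zipper protein, had 546 and 434 (DP), 760.1 and 459 (CD4intCD8+), then 1037 and 765 (CD8SP), on a probe whose name marks possible matches to other transcripts. The CD8SP arrays were above all others, the second by a small margin, and the change in CD8SP against DP cells was 0.86 ± 0.24 (adjusted p = 0.0337). Trim30a, an inhibitor of NF-kappaB signalling in mouse, had 287 and 208 (DP), 457 and 213 (CD4intCD8+), then 632 and 359 (CD8SP). Its CD8SP arrays were above its DP arrays, and its change of 0.95 ± 0.35 was called with the block alone (adjusted p = 0.000824, against 0.0947 without it). Stat2, the signal transducer, had 42.0 and 40.2 (DP), 29.4 and 23.6 (CD4intCD8+), then 39.8 and 32.2 (CD8SP). Its DP arrays were the highest, and its change of -0.17 ± 0.22 in CD8SP against DP cells was not called. Trafd1, a brake on innate signalling, had 121 and 129 (DP), 106 and 94.3 (CD4intCD8+), then 103 and 112 (CD8SP), also with both DP arrays above both CD8SP arrays and a change of -0.21 ± 0.15, not called.

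**Figure D4:**
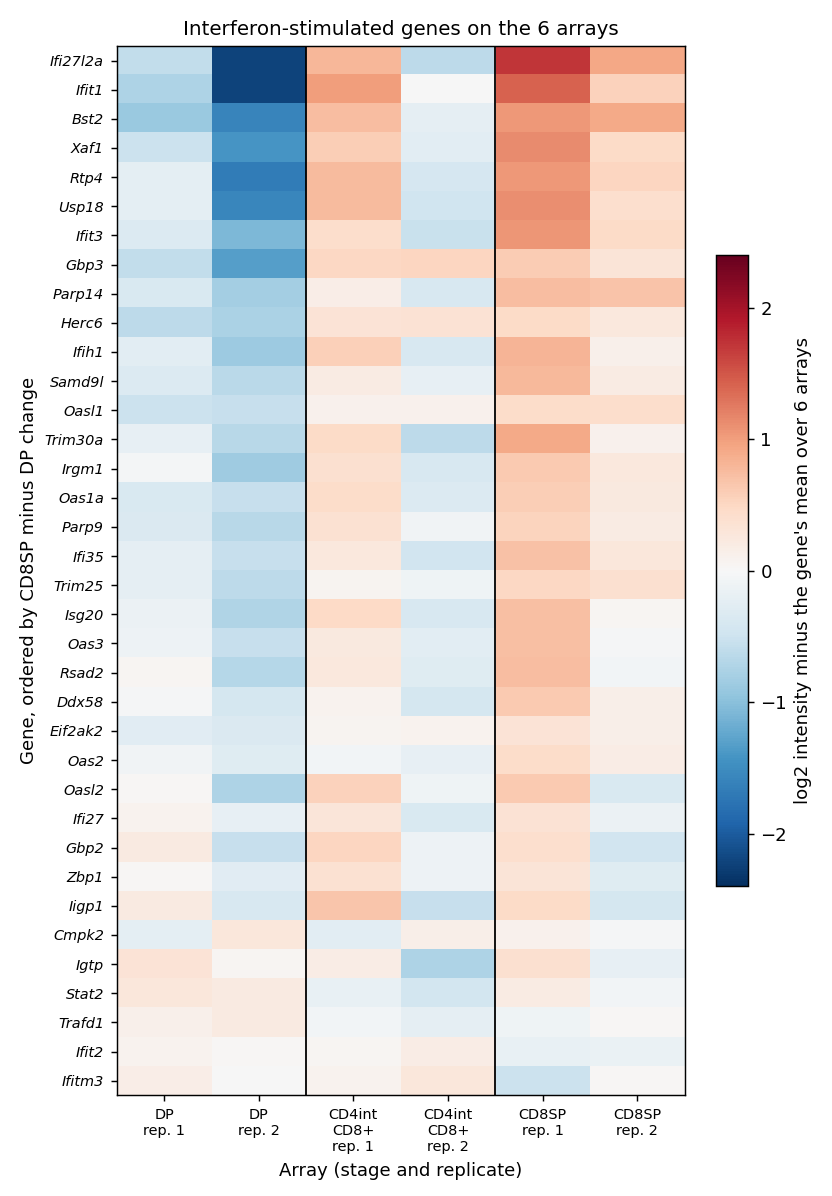
Log2 intensity minus the gene's own mean over the 6 arrays (colour) for the 36 tested members (vertical axis, ordered by the CD8SP minus DP change) on each array (horizontal axis). Of the 36, 26 are lowest on the second DP array and 28 highest on the first CD8SP array, and the second CD4intCD8+ array is paler or bluer than the first for 29 of 36.

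Calls over the whole span depended on which array was left out. Without DP replicate 2, 5 of the 16 calls in CD8SP against DP were kept (Bst2, Gbp3, Herc6, Parp14 and Trim25, against 9.33% of all genes called), and the other 11 had adjusted p of 0.0566 to 0.249. Without CD8SP replicate 1, 9 were kept, against 14.2% of all genes called, and Eif2ak2, Ifi35, Ifit3, Parp9, Rtp4, Samd9l and Usp18 had adjusted p of 0.0713 to 0.17. Without CD8SP replicate 2, Eif2ak2, Oasl1, Rtp4 and Usp18 were lost (adjusted p of 0.0512 to 0.081), and without DP replicate 1, Eif2ak2, Ifi35 and Oasl1 (0.0524 to 0.123). Bst2, Gbp3, Herc6, Parp14 and Trim25 kept their calls whichever array was left out. The log2 changes of Rtp4 and Usp18 were 2.46 and 2.32 without DP replicate 1, and 1.01 and 0.98 without DP replicate 2. None of the 16 changes turned its sign under any alternative run. The mean of all probes per gene ended the calls of Eif2ak2, Herc6, Ifi35, Parp14 and Usp18 (adjusted p of 0.0547 to 0.449), with log2 changes of 0.43 for Herc6 and, still called, 1.07 for Xaf1, and a fit without the intensity trend ended those of Ifi35, Rtp4 and Usp18 (0.0619 to 0.0753).

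The first step, CD4intCD8+ against DP cells, asked which members differ once CD4 has begun to fall. Of 36 tested members 4 were called, Ifit1, Bst2, Gbp3 and Herc6, all higher, against 11.7% of all genes called either way and 6.86% called higher, so the share was near the background. Gbp3 changed by 1.46 ± 0.25 (adjusted p = 0.00933) and Herc6 by 1.03 ± 0.16 (adjusted p = 0.00716). Bst2 changed by 1.49 ± 0.32 (adjusted p = 0.0192) and Ifit1 by 1.98 ± 0.48 (adjusted p = 0.0321). The median log2 change of all 36 was 0.42, against 0.01 for all genes, and 32 of 36 were positive. Leaving out 1 array gave medians of 0.65 (without DP replicate 1), 0.18 (without DP replicate 2), 0.16 (without CD4intCD8+ replicate 1) and 0.72 (without CD4intCD8+ replicate 2). Among the 40 on the array, 12 lay above, 2 below and 26 overlapped, against 26.5% of all genes above and 23.6% below. An unadjusted p under 0.05 was reached by 12 members, against 28.8% of all genes.

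With the replicate number as a block, 16 members were called in CD4intCD8+ against DP cells, 15 higher and 1 lower, against 23.5% of all genes called either way, 13.3% called higher and 10.1% called lower. The higher ones added to the 4 were Ifi27l2a, Ifih1, Ifit3, Isg20, Parp14, Parp9, Rtp4, Samd9l, Trim25, Usp18 and Xaf1, with log2 changes between 0.40 for Trim25 and 1.5 for Ifi27l2a. Igtp was the lower one, at -0.47 ± 0.29 (adjusted p = 0.0306, against 0.316 without the block). Without DP replicate 2 none of the 4 calls was kept, against 1.71% of all genes called, at adjusted p of 0.0557 to 0.165. The mean of all probes ended the call of Herc6 (adjusted p = 0.118) and a fit without the intensity trend that of Ifit1 (adjusted p = 0.0658). Without CD4intCD8+ replicate 1, Ifit1 was lost (adjusted p = 0.063) and Igtp was called lower, and without CD4intCD8+ replicate 2, Ifi27l2a, Parp9, Rtp4 and Xaf1 were gained, for 8 in all, against 4.33% of all genes. The log2 change of Ifit1 was 2.72 without DP replicate 1 and 1.25 without DP replicate 2. Without the filter on dim genes 4 of 40 members were called, against 5.69% of all genes called either way and 3.31% called higher.

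The second step, CD8SP against CD4intCD8+ cells, gave 0 of 36 calls by limma, against 0.119% of all genes (0.101% higher and 0.0183% lower), and without the filter 0 of 40, against 0.066% (0.055% higher). An unadjusted p under 0.05 was reached by 8 members, against 9.61% of all genes. The median log2 change of the members was 0.36 and 29 of 36 were positive. Without CD4intCD8+ replicate 1 the median was 0.61 with 32 positive, and without CD4intCD8+ replicate 2 it was 0.04 with 22 positive. Without CD8SP replicate 1 it was 0.12 with 24 positive, and without CD8SP replicate 2 it was 0.60 with 34 positive. On the arrays, 13 of 40 lay above, 2 below and 25 overlapped, against 18.7% of all genes above and 18.1% below. With the replicate block 5 were called, all higher, against 2.08% of all genes called either way, 1.26% higher and 0.824% lower. These were Ifi27l2a (1.23, adjusted p = 0.00857), Parp14 (0.83, 0.0222), Ifi35 (0.59, 0.0274), Ifit3 (0.81, 0.0341) and Xaf1 (0.63, 0.038). Gbp3 at -0.05 ± 0.25 and Herc6 at 0.02 ± 0.16 were close to 0 at this step, with neither called.

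Beside the members, genes of the interferon pathway were higher in CD8SP than in DP cells at Slfn8, Lgals3bp, Irf7 and Nlrc5 and lower at Ifngr1. Such genes were followed in lists of 89 genes that are no members, 73 of them on the array and 59 tested. The lists were chosen with earlier results of these data known, so their counts lend no independent support. In CD8SP against DP cells 16 were higher and 2 lower, in CD4intCD8+ against DP cells 4 were higher and 3 lower, and in CD8SP against CD4intCD8+ cells 0 were called (limma). Of all genes, 11.5% were called higher and 8.35% lower in CD8SP against DP cells. In CD4intCD8+ against DP cells 6.86% were called higher and 4.84% lower, so the counts of these lists there were near the background. The other background shares, also those with the block, are those given for the members. With the block the counts, in the same order of comparisons, were 26 higher and 4 lower, 10 higher and 4 lower, and 5 higher. The 6 interferon genes on the array were all under the filter. Of 9 tested genes for receptors, kinases and signal transducers, 1 was higher and 1 lower in CD8SP against DP cells.

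Ifngr1, the ligand-binding chain of the interferon gamma receptor, had 1223 and 1176 (DP), 477 and 490.0 (CD4intCD8+), then 364 and 419 (CD8SP). The DP arrays stood far above the others, and the log2 change was -1.60 ± 0.12 in CD8SP against DP cells (adjusted p = 8.86e-05) and -1.30 ± 0.12 in CD4intCD8+ against DP cells (adjusted p = 0.00107). Ifnar1 had 190.4 and 162 (DP), 179 and 141 (CD4intCD8+), then 176 and 151 (CD8SP), with the DP and CD8SP arrays overlapping. In CD8SP against DP cells the changes of Ifnar1 (-0.10 ± 0.17), Ifnar2 (0.24 ± 0.14) and Ifngr2 (0.17 ± 0.21) were not called. Il10rb, a chain shared by the receptors of interleukin 10 and of type III interferon, was higher in CD8SP than in DP cells, by 1.53 ± 0.15 (adjusted p = 0.000319), and in CD4intCD8+ than in DP cells, by 0.90 ± 0.15 (adjusted p = 0.00885, lost without DP replicate 1 at 0.0644 and without DP replicate 2 at 0.0522). With the mean of all its probes Il10rb changed by 0.86 in CD8SP and 0.56 in CD4intCD8+ against DP cells, the second not called (adjusted p = 0.124).

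Irf7, the factor that amplifies type I interferon production, had 114 and 66.6 (DP), 213 and 102 (CD4intCD8+), then 371 and 254 (CD8SP). As with the members, replicate 1 was higher at every stage, and the change in CD8SP against DP cells was 1.75 ± 0.34 (adjusted p = 0.00829, and 0.0716 without DP replicate 2). Irf9, the DNA-binding part of the type I complex, had 111 and 54.9 (DP), 136 and 83.5 (CD4intCD8+), then 189 and 132 (CD8SP). Its CD8SP arrays lay above its DP arrays, and its change of 0.96 ± 0.33 was called with the block alone (adjusted p = 0.000917, against 0.0693). Irf1 changed by 0.42 ± 0.15, called with the block alone (adjusted p = 0.0187, against 0.077). Irf3, which induces interferon genes on sensing of nucleic acid, was lower in CD4intCD8+ than in DP cells, by -0.55 ± 0.15 (adjusted p = 0.0432, and 0.242 without DP replicate 1). Of the brakes on cytokine signalling, Socs1 was lower in CD8SP than in DP cells, at -1.15 ± 0.20 (adjusted p = 0.00443, and 0.0524 without DP replicate 1), and likewise in CD4intCD8+ cells, at -1.34 ± 0.20 (adjusted p = 0.00617, and 0.0574 without DP replicate 1). Socs3 was higher, at 1.24 ± 0.23 (adjusted p = 0.00703, and 0.0532 without DP replicate 2). Myd88, an adaptor of Toll-like receptors, was higher by 0.51 ± 0.15 (adjusted p = 0.0396, and 0.206 without DP replicate 2).

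Among 32 further interferon-responsive genes tested, 12 were higher and 0 lower in CD8SP against DP cells, against 11.5% and 8.35% of all genes. In CD4intCD8+ against DP cells 3 were higher and 0 lower, against 6.86% and 4.84% of all genes. This list too was chosen with earlier results of these data known, so its counts lend no independent support. Slfn8, a Schlafen family gene, had 81.3 and 56.6 (DP), 173 and 112 (CD4intCD8+), then 315 and 245 (CD8SP), and its change was 1.94 ± 0.24 (adjusted p = 0.000884). Lgals3bp, a secreted galectin-binding glycoprotein, had 91.5 and 68.3 (DP), 254 and 190.1 (CD4intCD8+), then 365 and 262 (CD8SP), and its change was 1.89 ± 0.22 (adjusted p = 0.000608). For both, all later arrays were above both DP arrays. Nlrc5, the activator of class I genes, had 82.6 and 36.3 (DP), 127 and 79.2 (CD4intCD8+), then 199 and 177 (CD8SP) and changed by 1.66 ± 0.33 (adjusted p = 0.00819). In CD4intCD8+ against DP cells 3 of the 32 were called, all higher: Lgals3bp (1.41), Slfn8 (0.98) and the immunoproteasome subunit Psmb9 (0.66), and without DP replicate 2 their adjusted p was 0.0594 for Lgals3bp, 0.177 for Slfn8 and 0.0577 for Psmb9.

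Markers of other cells and of RNA quality were read on the same arrays. Of 10 dendritic and plasmacytoid markers on the array, 5 lay above the filter intensity, and the summed level was 464 and 482 (DP), 596 and 629 (CD4intCD8+), then 609 and 837 (CD8SP). Of that list Cd74 (1.82), H2-Ab1 (1.73) and H2-Aa (1.11) were called higher in CD8SP against DP cells, and Cd74 (1.43, adjusted p = 0.00354) and H2-Ab1 (1.15, adjusted p = 0.033) also in CD4intCD8+ against DP cells, where H2-Aa was called with the block alone (adjusted p = 0.0442). Klk1 (0.04 ± 0.17) and Tcf4 (-0.29 ± 0.15), also of that list, were tested and not called in CD8SP against DP cells. Klk1 had the highest mean intensity of the list (145.95) and so weighs on the sum. Itgax, Siglech, Xcr1, Flt3 and Batf3 were under the filter. This sum was higher on replicate 2 at every stage, the opposite order to most members. The sum over 11 myeloid markers was 293 and 363 (DP), 314 and 487 (CD4intCD8+), then 291 and 362 (CD8SP), with 4 above the filter intensity and 0 called without the block. With the block Lyz1 (adjusted p = 0.00755) and Lyz2 (adjusted p = 0.0479) were called higher in CD4intCD8+ against DP cells. Of 5 B cell markers 2 lay above the filter intensity, with sums of 169 and 201 (DP), 194 and 98.8 (CD4intCD8+), then 241 and 224 (CD8SP), and Cd79b was called higher in CD8SP against DP cells, by 0.90 ± 0.19 (adjusted p = 0.0118). Of 5 NK markers 0 did, with sums of 63.9 and 65.8 (DP), 67.7 and 71.7 (CD4intCD8+), then 124 and 95.3 (CD8SP). Epithelial markers (2 of 7 above the filter intensity) summed to 149 to 176 and erythroid markers (1 of 3) to 61.9 to 123 over the arrays. The 6 thymocyte markers summed to 18622 and 20093 (DP), 14957 and 12100 (CD4intCD8+), then 13620 and 12287 (CD8SP). Of them 4 were called lower in CD8SP against DP cells, against 8.35% of all genes. In CD4intCD8+ against DP cells 3 were called lower (5 with the block), against 4.84% of all genes (10.1% with the block). The ratio of 3′ to 5′ actin control probes was 1.98 and 2.14 (DP), 2.37 and 3.47 (CD4intCD8+), then 2.28 and 2.62 (CD8SP), also higher on replicate 2 at every stage. With the log2 of this ratio as a covariate, 18 members were called higher in CD4intCD8+ against DP cells, against 3.73% of all genes called either way and 2.18% higher. In CD8SP against DP cells 26 were, against 18.8% either way and 10.8% higher. Both DP arrays had a lower ratio than all later arrays, so ratio and stage cannot be fully told apart in this fit. The part of such cells in the members' changes was not tested.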

How the data were processed

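The deposited table, made by the authors from single-colour Affymetrix arrays, holds 1 intensity per probe and array. That the scale is linear was read from the values, since no header or label states it. The software and scaling behind it are not given in the sources used here. It has 45101 probe entries, 64 of them controls, and 3.60% of the other values lie below 0. Probes were named from the platform annotation: 34945 of 45037 had 1 symbol, 932 several and 9160 none; 34741 matched a current gene by Entrez number, and 0 symbols changed.

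Values below 0 were set to 0, 5.84 was added (the 10th percentile of positive values) and log2 was taken, so changes of dim genes are understated. No further scaling was applied. Genes below the 40th percentile of the mean were left out (7277 genes). For 1 member the highest linear mean would give another probe. limma 3.58.1 (R 4.3.3; lmFit, eBayes with an intensity trend, 3 residual degrees of freedom) was fitted to all 6 arrays with stage as the factor, and p-values were adjusted by Benjamini-Hochberg over 10916 genes with 0.05 as threshold. The method was tested on simulated data. SE are the moderated fit's.

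Replicates 1 and 2 are named in the labels and the design text speaks of a pair of experiments. Deviations of same-numbered arrays from their stage means correlated at 0.26, 0.21 and 0.30 for the 3 pairs of stages, so the numbers were taken to pair samples, and a fit with the number as a block was an alternative. Of 16 alternatives, the others changed the pseudocount, filter, scaling, probe choice, trend, arrays or covariate.

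Every called member, the 3 with the highest mean and the 3 with the largest change in each comparison were to be given in full. For genes that are no members, Irf and receptor genes and up to 4 called per list were named. Members, gene lists and markers were chosen with earlier results of these data known. Promoters are RefSeq's; only exact matches of the motif letters were counted.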

Additional observations from a re-analysis of the deposited data

How the results depend on the processing

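The number of members called was 16 in CD8SP against DP, 4 in CD4intCD8+ against DP and 0 in CD8SP against CD4intCD8+ cells. The shares of all genes called were 19.8%, 11.7% and 0.119%. With the replicate block 25, 16 and 5 members were called, and the shares of all genes rose too, to 30.0%, 23.5% and 2.08%. For the 59 tested genes of the other pathway lists the counts were 18, 7 and 0, and with the replicate block 30, 14 and 5, beside the same shares of all genes. When the actin 3′ to 5′ ratio entered the fit, 26 and 18 members were called in the first 2 of these comparisons, against 18.8% and 3.73% of all genes. That ratio was lowest on the DP arrays, so it cannot be fully told apart from stage. With the 60th percentile filter, 10 and 1 of the 22 members left were called, against 26.0% and 17.3%. Apart from the filter and the left-out arrays, the cause was not tested. With 1 array left out, 9.33% to 21.5% of all genes were called in CD8SP against DP cells. In CD4intCD8+ against DP cells 1.71% to 12.8% were, and in CD8SP against CD4intCD8+ cells 0.055% to 0.641%. Since these shares varied too, the ranges of counts that follow cannot be read as particular to the members or the other pathway genes. Leaving out 1 array gave 5 to 21 members in CD8SP against DP, 0 to 8 in CD4intCD8+ against DP and 0 in CD8SP against CD4intCD8+, and for the other pathway genes 9 to 21, 2 to 7 and 0 to 3. The median log2 change of the tested members in CD4intCD8+ against DP cells was 0.16 without CD4intCD8+ replicate 1, 0.72 without CD4intCD8+ replicate 2 and 1.05 once the actin ratio entered, and the median in CD8SP against CD4intCD8+ cells fell to 0.04 both with that ratio in the fit and without CD4intCD8+ replicate 2. In CD8SP against DP cells the median was 0.58 without DP replicate 2 and 0.59 without CD8SP replicate 1. The median in CD8SP against CD4intCD8+ cells over the left-out arrays ran up to 0.61. No change of a called member turned its sign, but changes of members not called did: those positive numbered 25 of 36, against 31, in CD8SP against DP cells without CD8SP replicate 1, 26, against 32, in CD4intCD8+ against DP cells without CD4intCD8+ replicate 1, and 21, against 29, in CD8SP against CD4intCD8+ cells with the actin ratio. DP means under the filter intensity, as for Gbp3, Bst2 and Oasl1, limit the precision of those changes.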

Other observations

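Of the 36 tested members, 17 had more than 1 probe with their symbol alone, 24 other probes in all. Of these, 16 (for 13 members) reached the filter intensity, and in CD8SP against DP cells all 16 had the same sign of change as the probe used for that member, though not the same size: 1.27 against 0.02 for Cmpk2, and 0.17 and 0.45 against 1.05 for Herc6. Under the filter intensity, 1 probe each of Eif2ak2, Ddx58 and Parp14 had the opposite sign, and the rest had the same sign. Probes of 1 gene share its transcripts, so they are no independent samples.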
